A study of Mus musculus with 43 samples.

Results

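The genes described here are 10 components of the Notch pathway: the ligand genes Dll1, Dll4, Jag1 and Jag2, the receptor genes Notch1 and Notch4, and the target genes Hey1, Hey2, Hes1 and Nrarp. They were chosen by name, matched by Ensembl identifier to the 57010 genes of the deposited count table, and all 10 passed the filter on low counts in every fit. Notch receptors sit on the cell surface and bind Delta-like or Jagged ligands on a neighbouring cell. Binding lets proteases release the intracellular part of the receptor, which enters the nucleus, joins the DNA-binding protein RBPJ and switches on targets such as the Hes and Hey repressors and Nrarp, a feedback inhibitor. In blood vessels the pathway is known for restraining sprouting downstream of VEGF, where Dll4 in a tip cell signals to its neighbours, and for arterial identity.

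The series used mice with a premature stop codon, Q150X, placed by genome editing in the vascular growth factor gene Vegfa, and compared them with wild type. RNA was sequenced in bulk from whole hearts at homeostasis (3 wild type, 3 Q150X), 7 days after myocardial infarction (MI; 4 and 4) and 30 days after MI (3 and 4). It was also sequenced from endothelial cells at homeostasis (3 and 3) and 3 days after MI (2 and 2), and from cardiomyocytes at homeostasis (3 and 3) and 3 days after MI (3 and 3). The groups used here include no sham operation, so injury is compared with homeostasis. The Q150X samples carry the code HO in the labels, which the study's design text does not spell out, and the sources used here give neither age, sex, strain and isolation method nor whether replicates are separate animals. The p-values therefore measure the spread between these libraries, which may be technical. Levels are given as CPM, with library sizes scaled by TMM, a normalization that adjusts for library composition, over all 43 libraries.

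Total counts ran from 25035490 to 45243608 per library, and the lowest member count was 5 (Nrarp). In wild type at homeostasis the summed CPM of 10 endothelial markers was 9180 to 10522 in endothelial cells, 1337 to 1482 in hearts and 313 to 724 in cardiomyocytes, and that of 10 cardiomyocyte markers was 521 to 623, 54650 to 70631 and 90169 to 102630. Some libraries stood apart. Replicate 1 of both homeostasis heart groups had a summed level of 5 atrial markers of 2685 in wild type and 2643 in Q150X, against 28.0 to 52.7 in the other 4. Replicate 4 of the wild-type day 7 hearts had 448 CPM of the placental gene Tpbpa, against 0.117 or less in the other 3. Replicate 2 of the Q150X day 3 endothelial cells had 1011 CPM of Rag1, a lymphocyte recombination gene, and an endothelial marker sum of 748 against 3294 in replicate 1. All 4 day 3 endothelial libraries had 325 to 853 CPM of Xist and at most 0.332 of the Y-linked Ddx3y, and all 6 at homeostasis had at most 0.878 and at least 138, so the 2 times and the sexes of those cells cannot be told apart.

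RBPJ is known to bind the core TGGGAA, and the promoters of 2 targets are shown, Hey2, in which that core was found, and Nrarp, in which it was not. RefSeq promoter windows of 300 bases, 250 before the start and 50 from it on (build GRCm38.p6), were held for 8 of the 10 genes, all but Hey1 and Hes1. The core was searched as TGGGAA and, on the other strand, TTCCCA. It was found in 1 of the 8 genes, Hey2, at 2 places in opposite orientation: its first base lay 207 bases and 3 bases before the start. Both were also matches to GTGGGAA, a longer form that contains the core. Of all 32851 windows, 25.6% held the core and 6.38% the longer form. Each place is printed with its core in capitals, followed by the 250 bases before the start of Hey2 (chr10:30842784-30843033, minus strand), in which the place nearest the start is cut after 3 of its bases, and those of Nrarp (chr2:25180508-25180757, plus strand), which held no match. All run 5′ to 3′ on the gene's strand.
Hey2, 207 bases before the start: cgcggtggcaTTCCCAcgcctctgcc
Hey2, 3 bases before the start: ggctgcagcgTGGGAAagaacctcca
Hey2, 250 bases before the start: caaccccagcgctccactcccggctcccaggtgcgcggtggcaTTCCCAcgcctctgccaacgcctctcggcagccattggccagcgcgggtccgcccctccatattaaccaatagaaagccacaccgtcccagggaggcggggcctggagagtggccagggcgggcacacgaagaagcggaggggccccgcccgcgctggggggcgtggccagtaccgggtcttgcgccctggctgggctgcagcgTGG
Nrarp, 250 bases before the start: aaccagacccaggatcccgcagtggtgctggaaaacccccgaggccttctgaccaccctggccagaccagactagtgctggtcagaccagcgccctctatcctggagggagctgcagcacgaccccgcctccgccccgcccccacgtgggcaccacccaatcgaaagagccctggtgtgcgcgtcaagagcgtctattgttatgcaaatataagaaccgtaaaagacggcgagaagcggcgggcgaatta
A match is a description of letters. No binding was measured.

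At homeostasis the 10 genes were highest in endothelial cells. All 10 were higher in wild-type endothelial cells than in wild-type whole hearts, with log2 fold changes from 1.67 for Hey2 to 3.10 for Dll4 and a median of 2.34, beside 0.01 over all 16585 genes tested. In this comparison 64.7% of all genes passed the test and 31.5% passed as higher. The endothelial fraction was also higher in 10 mural cell markers, with a summed CPM of 3090 to 4213 against 1263 to 1437 in hearts. The sum of 10 fibroblast markers was 1314 to 1525 against 982 to 2184. The part of these cells in the differences was not tested. For all 10 members the 2 endothelial groups at homeostasis held the highest means of the 14 groups, and for 8 of 10 a cardiomyocyte group held the lowest, the exceptions being Hes1 (hearts at day 30, wild type) and Hey2 (endothelial cells at day 3, Q150X).

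**Figure D1:**
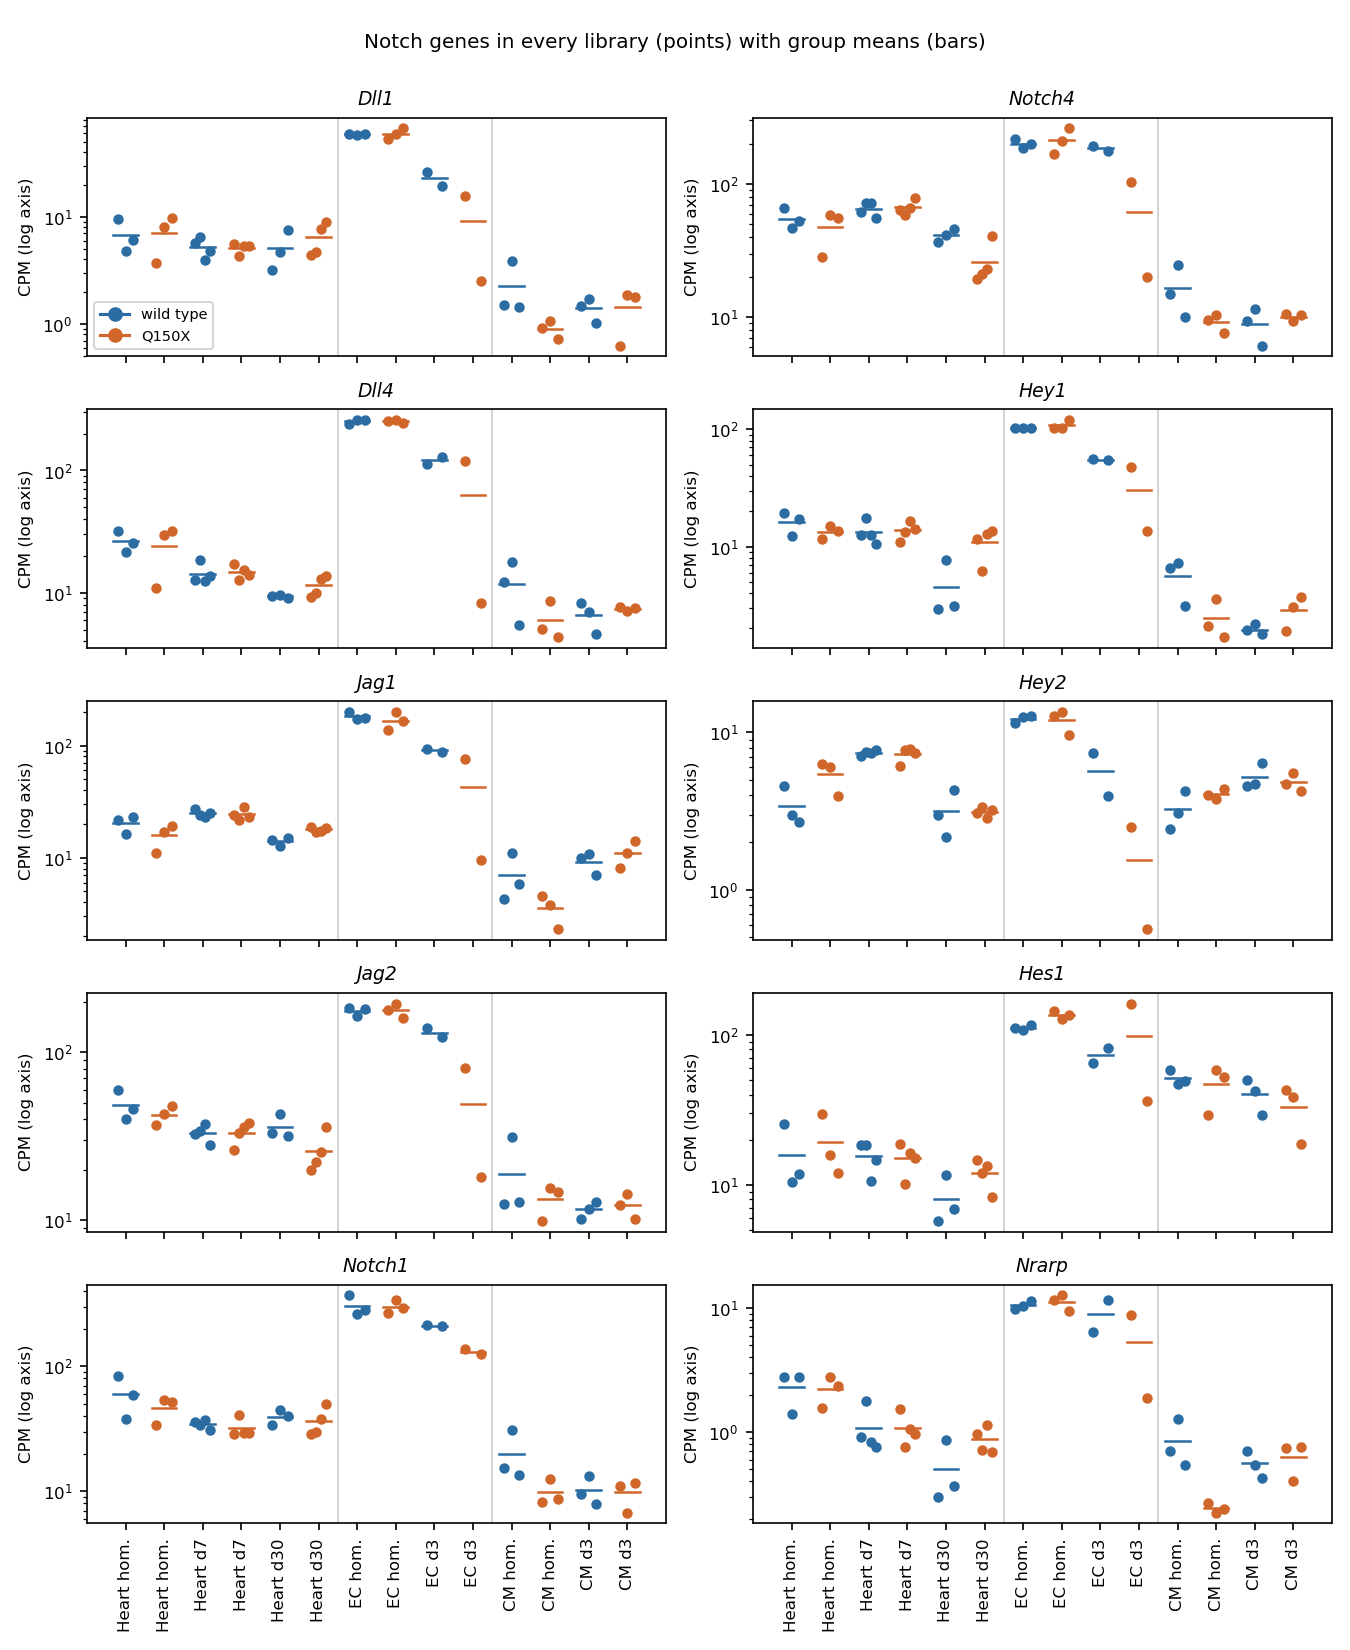
Level of each Notch gene in every library, in CPM on a log axis, for wild type (blue) and Q150X (orange); points are libraries and bars are group means. The 2 groups of endothelial cells at homeostasis (EC hom.) are highest in all 10 panels, and 1 of the 2 Q150X endothelial libraries at day 3 lies far below the other in most panels.

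Dll4, the endothelial ligand of the tip cell, reached 242, 257 and 257 CPM in the 3 wild-type endothelial libraries, 31.7, 21.6 and 25.6 in hearts and 12.1, 17.9 and 5.49 in cardiomyocytes. The 3 compartments did not overlap. Its log2 fold change was 3.10 ± 0.34 (SE) in endothelial cells against hearts (adjusted p = 1.3e-05) and −1.12 ± 0.33 in cardiomyocytes against hearts (adjusted p = 0.0212), by edgeR's quasi-likelihood test with Benjamini-Hochberg adjustment. Jag1, a ligand that can oppose Dll4 in sprouting vessels, was at 200, 171 and 175 CPM in endothelial cells and 21.8, 16.1 and 22.9 in hearts (3.00 ± 0.29, adjusted p = 4.91e-06). Dll1, a ligand of arterial endothelium, was at 58.5 to 59.8 and 4.78 to 9.65 CPM (2.95 ± 0.34, adjusted p = 1.99e-05). Jag2 was at 165 to 183 and 39.98 to 59.9 CPM, a smaller difference of 1.70 ± 0.32. The receptors Notch1, the broadly used endothelial receptor, and Notch4, which is largely endothelial, were higher by 2.18 ± 0.34 and 1.70 ± 0.27.

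Of the targets, Hey1 was at 103 CPM in each of the 3 wild-type endothelial libraries and at 12.2 to 19.3 in hearts, and Nrarp at 9.83 to 11.3 and 1.40 to 2.78. The targets Hes1 and Hey2 departed from the ligands in cardiomyocytes. Hes1, a repressor that many signals besides Notch are known to switch on, was at 58.8, 47.0 and 49.6 CPM in cardiomyocytes, 25.4, 10.4 and 11.8 in hearts and 111, 108 and 116 in endothelial cells. Both isolated fractions lay above all whole hearts, and Hes1 was the 1 member that was higher in cardiomyocytes than in hearts (1.74 ± 0.28, adjusted p = 9.5e-04), where 37.2% of all genes passed, 15.9% as higher and 21.3% as lower. Without the wild-type heart of high atrial markers, which had the 25.4 CPM, the difference was 2.22 ± 0.13. Hey2, which is known in ventricular muscle as well as in arteries, was at 2.45, 3.10 and 4.22 CPM in cardiomyocytes and 4.59, 2.98 and 2.70 in hearts, with overlapping groups and a log2 fold change of −0.03 ± 0.27 (adjusted p = 0.946). Scaled by library size alone, which moved the median of all genes to −0.77 in this comparison, the Hey2 value was −0.74 (adjusted p = 0.0457), 0.04 above that median, and Hes1 stayed higher (1.03, or 1.81 above it).

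The other 8 members were lower in cardiomyocytes than in hearts, by −1.12 (Dll4) to −1.68 (Notch4) on the log2 scale. Of these calls, 3 did not hold without that same wild-type heart (Dll4, adjusted p = 0.12; Jag2, 0.0698; Notch1, 0.0539), and Dll4 and Nrarp were each lost without 1 cardiomyocyte library (replicate 1, adjusted p = 0.0556; replicate 3, 0.0528). Set against endothelial cells, all 10 were lower in cardiomyocytes, from −0.91 ± 0.27 for Hes1 and −1.70 ± 0.26 for Hey2 to −4.50 ± 0.38 for Dll1; 73.8% of all genes passed here, 39.4% as lower. The median of the 10 was −3.59 and that of 10 endothelial markers −4.14. In bulk RNA, fewer cells of a type and less RNA per cell cannot be told apart.

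Per kilobase of exon, which allows genes to be compared, Dll4 ranked first in wild-type endothelial cells at homeostasis with 65.4 ± 2.26 CPM per kb (SD, n = 3). Hes1 came second with 54.9 ± 1.83, then Hey1 (31.6 ± 0.0192) and Jag1 (31.2 ± 2.67), which did not differ beyond their spread. Next were Jag2 (25.4 ± 1.49), Notch4 (24.9 ± 2.11) and Notch1 (21.4 ± 3.98), whose ranges of mean ± SD overlapped. Dll1 (13.996 ± 0.159), Nrarp (4.07 ± 0.294) and Hey2 (2.65 ± 0.136) followed. These SDs are between libraries and do not pair the genes within a library, so they do not settle the order of genes close in level. In cardiomyocytes Hes1 led with 25.4 ± 3.04 CPM per kb, and the next, Dll4, was at 3.07 ± 1.61. In hearts the first 4, Hes1 (7.79 ± 4.05), Jag2 (6.98 ± 1.47), Dll4 (6.83 ± 1.33) and Notch4 (6.82 ± 1.198), were not separated by their spread.

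**Figure D2:**
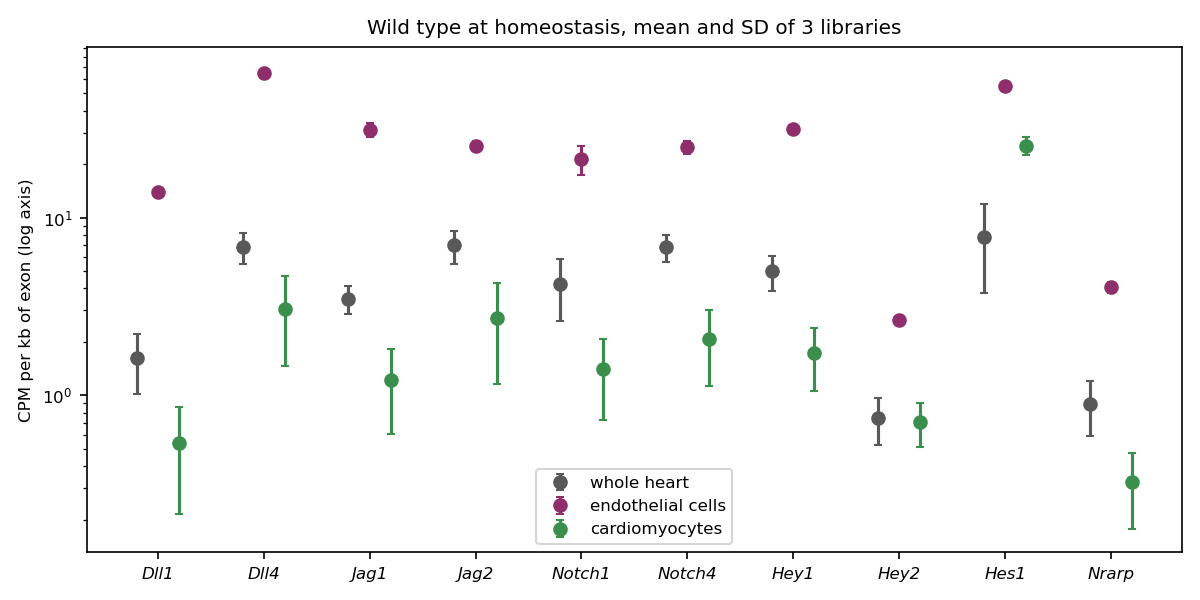
Mean level in CPM per kb of exon on a log axis, with SD, of 3 wild-type libraries of each compartment at homeostasis. Endothelial cells lie above hearts for all 10 genes, and Hes1 is the gene whose cardiomyocyte level lies above that of the heart.

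After infarction, in whole hearts, Dll4 was the member that fell in both genotypes at both times. In wild type it was at 31.7, 21.6 and 25.6 CPM at homeostasis, 12.8, 18.4, 12.5 and 13.8 at day 7 and 9.33, 9.67 and 9.01 at day 30, with no overlap between the 3 times. The log2 fold changes from homeostasis were −0.88 ± 0.26 at day 7 (adjusted p = 0.0276) and −1.50 ± 0.28 at day 30 (adjusted p = 0.00303). In Q150X it was at 10.9, 29.6 and 32.1 CPM, then 17.0, 12.8, 15.3 and 14.02, then 9.29, 10.05, 12.9 and 13.7. The low homeostasis value, 10.9, belonged to the Q150X heart of high atrial markers, and without it both later times lay below homeostasis. The Q150X changes were −0.72 ± 0.26 (adjusted p = 0.044) and −1.08 ± 0.26 (adjusted p = 0.004), and −1.07 ± 0.17 and −1.43 ± 0.17 without the libraries that stood apart. The day 7 calls of Dll4 were fragile when single libraries were left out. Without all the libraries that stood apart both calls held, at −0.70 ± 0.18 in wild type (adjusted p = 0.0122) and −1.07 ± 0.17 in Q150X (adjusted p = 1.88e-04). The wild-type one was lost without homeostasis replicate 1 (adjusted p = 0.098) or 3 (0.0646) or day 7 replicate 1 (0.0702), 3 (0.0708) or 4 (0.0656). The Q150X one was lost without homeostasis replicate 2 (0.166) or 3 (0.233) or day 7 replicate 2 (0.101), 3 (0.074) or 4 (0.0873). With the replicate number as a block the Q150X call was lost too (0.0753). That loss is not read as a weaker effect, because the numbers are not shown to pair samples. The wild-type and Q150X changes come from separate control hearts, while day 7 and day 30 of a genotype share theirs.

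At day 7 the members moved in both directions. In wild type 1 of 10 members rose (Hey2) and 2 fell (Dll4, Notch1), with 13.7% of all genes called, 7.65% higher and 6.07% lower. In Q150X 1 rose (Jag1) and 1 fell (Dll4), with 26.0% of all genes called, 13.8% higher and 12.3% lower. The 2 of 10 in Q150X lay below that share. Jag1 was at 10.9, 17.1 and 19.3 CPM in Q150X hearts at homeostasis and 24.2, 21.8, 28.2 and 23.3 at day 7, without overlap (0.62 ± 0.16, adjusted p = 0.00901). In wild type Jag1 was at 21.8, 16.1 and 22.9, then 27.2, 24.2, 22.9 and 25.0, and 0.29 ± 0.16 did not pass (adjusted p = 0.249). Fitted with those 2 groups alone, the Q150X values of Jag1 and Dll4 did not pass (adjusted p = 0.132 and 0.15). Notch4 was at 46.6 to 65.5 CPM at homeostasis and 55.1 to 72.2 at day 7 in wild type, and did not pass in either genotype (0.24 ± 0.24 and 0.48 ± 0.24). Notch1 was at 83.7, 38.0 and 59.0 CPM, then 36.1, 33.7, 37.2 and 31.1, in wild type (−0.80 ± 0.23, adjusted p = 0.0241). The 83.7 belonged to the wild-type heart of high atrial markers, and without it the call was lost (adjusted p = 0.161), as it was without homeostasis replicate 3 (0.0602) or day 7 replicate 4 (0.0674) and with library size alone (0.0508). In Q150X Notch1 was at 33.8, 53.7 and 52.0 CPM, then 29.0, 40.8, 29.1 and 29.2, overlapping, and did not pass. It passed as lower without homeostasis replicate 1 (−0.73, adjusted p = 0.0334) or day 7 replicate 2 (−0.68, 0.0481). The same held without all the libraries that stood apart (−0.73, 0.0133).

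Hey2 rose at day 7 in wild type. It was at 4.59, 2.98 and 2.70 CPM in wild-type hearts at homeostasis and 7.04, 7.53, 7.40 and 7.72 at day 7 (1.11 ± 0.23, adjusted p = 0.00347), without overlap, and the call held without each of the 7 libraries in turn. In Q150X it was at 6.27, 6.03 and 3.96, then 6.09, 7.78, 7.86 and 7.36, overlapping, and 0.42 ± 0.23 did not pass (adjusted p = 0.178). The difference between the genotypes in this change, −0.69 ± 0.32, did not pass either (adjusted p = 1). By day 30 Hey2 was at 3.01, 2.17 and 4.28 CPM in wild type and 3.08, 3.37, 2.84 and 3.24 in Q150X, below all day 7 values of the same genotype.

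At day 30 the direction was down. No member rose, 3 of 10 fell in wild type (Dll4, Hey1, Nrarp) where 8.93% of all genes were called and 3.49% were lower, and 5 of 10 fell in Q150X (Dll4, Jag2, Notch4, Hey2, Nrarp) where 29.7% were called and 14.2% were lower. The median of the 10 was −0.58 in wild type and −0.70 in Q150X, against −0.02 and −0.03 over all genes. Nrarp was at 2.78, 1.40 and 2.77 CPM in wild-type hearts at homeostasis and 0.301, 0.855 and 0.369 at day 30 (−2.16 ± 0.45, adjusted p = 0.0061), and at 1.58, 2.76 and 2.36, then 0.967, 0.715, 1.14 and 0.693, in Q150X (−1.34 ± 0.39, adjusted p = 0.0148). Neither pair of groups overlapped. The 3 wild-type calls held without each single library. Fitted with only the 2 groups compared, Nrarp missed the threshold (adjusted p = 0.0532).

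Hey1 was at 19.3, 12.2 and 17.2 CPM in wild-type hearts at homeostasis and 2.93, 7.61 and 3.10 at day 30 (−1.83 ± 0.33, adjusted p = 0.00215), without overlap. In Q150X the same gene was at 11.6, 14.8 and 13.5 CPM, then 11.5, 6.23, 12.7 and 13.6, which overlapped (−0.28 ± 0.29, adjusted p = 0.505). Jag2 in Q150X was at 37.0, 43.2 and 47.7 CPM, then 20.0, 22.2, 25.7 and 35.8 (−0.72 ± 0.19, adjusted p = 0.0074). Notch4 in Q150X was at 28.6, 58.6 and 55.5, then 19.3, 21.1, 23.0 and 40.7 (−0.88 ± 0.24, adjusted p = 0.00967), overlapping through the atrial-marker heart (28.6). Jag2 kept its call without each library. Notch4, Hey2 and Nrarp lost theirs without homeostasis replicate 2 (adjusted p = 0.0629, 0.0532 and 0.0679), Notch4 also without replicate 3 (0.0532), and with library size alone, which put the median of all genes at 0.24, 1 member (Dll4) was called.

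**Figure D3:**
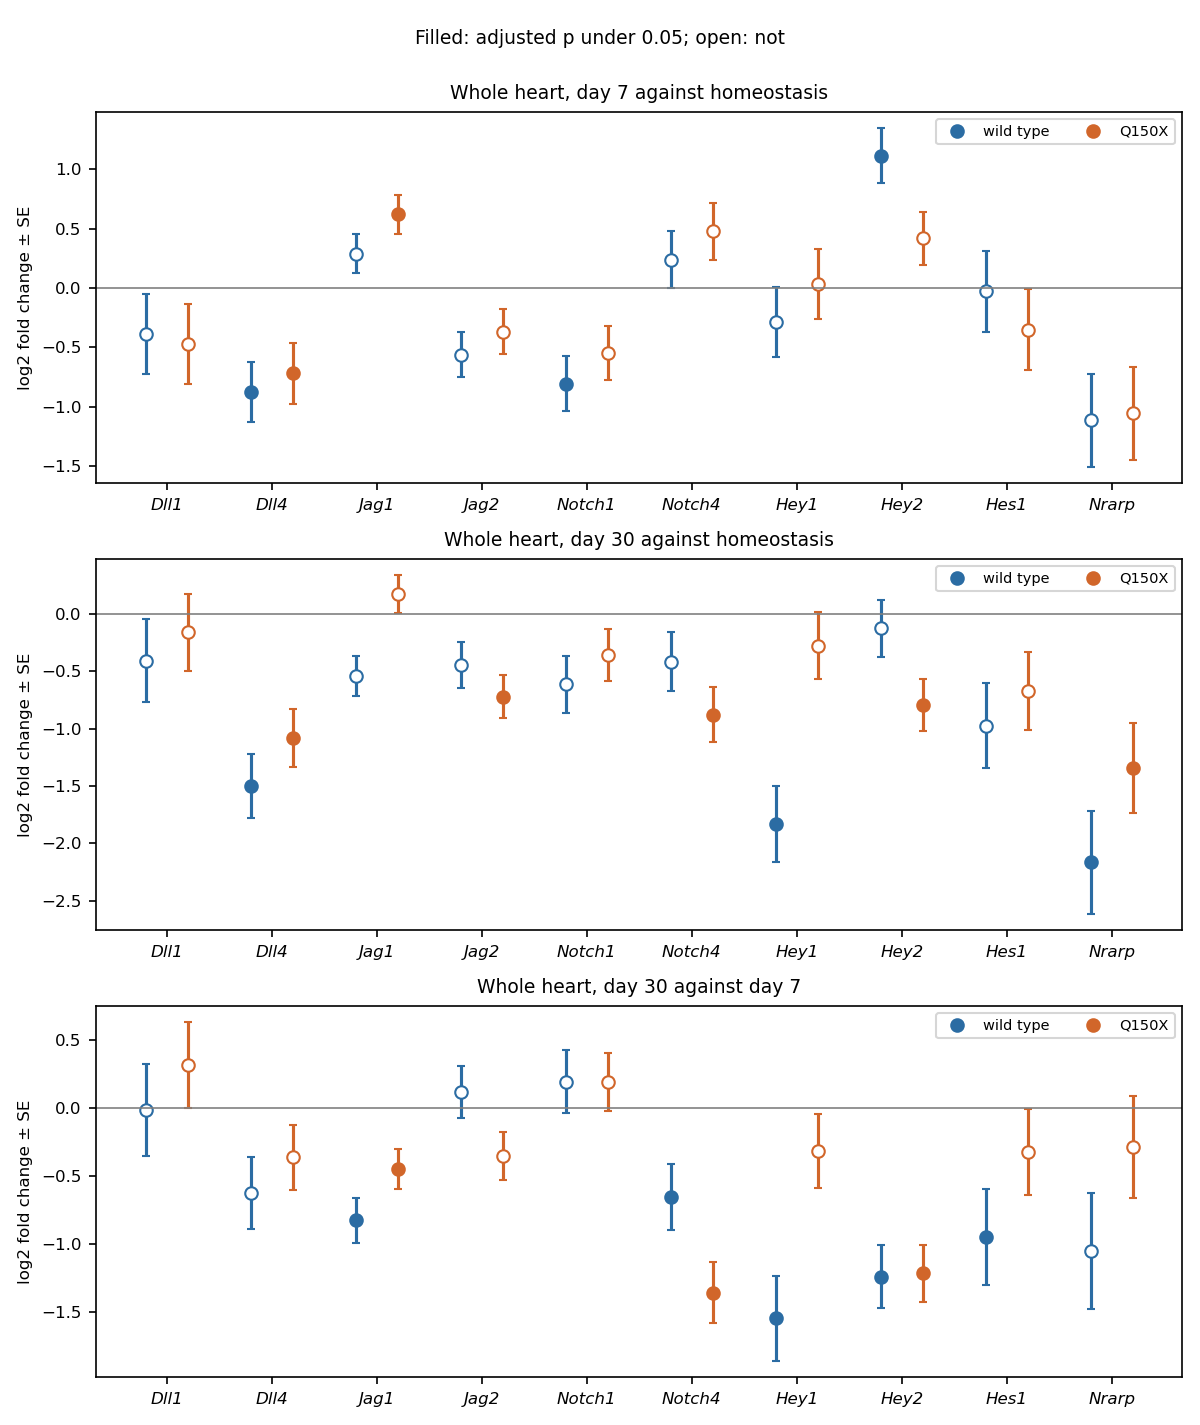
Log2 fold change with SE of the 10 genes in whole hearts between times, for wild type (blue) and Q150X (orange); filled points passed an adjusted p of 0.05. The day 7 panel holds points on both sides of 0, and at day 30 against homeostasis every filled point lies below 0.

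Between day 7 and day 30, groups that share no homeostasis library, 5 of 10 fell in wild type (30.0% of all genes called, 16.1% lower) and 3 of 10 in Q150X (31.4% called, 16.5% lower). Hey2 fell in both, with log2 fold changes of −1.24 ± 0.23 in wild type (adjusted p = 8.73e-04) and −1.22 ± 0.21 in Q150X (adjusted p = 3.4e-04). Jag1 fell too (−0.83 ± 0.17, adjusted p = 0.00138, and −0.45 ± 0.15, adjusted p = 0.0286), from 22.9 to 27.2 CPM down to 12.7 to 14.99 in wild type and from 21.8 to 28.2 down to 16.8 to 18.7 in Q150X. Notch4 fell in Q150X from 58.5 to 78.4 CPM down to 19.3 to 40.7 (−1.36 ± 0.23, adjusted p = 2.41e-04), and in wild type (−0.65 ± 0.24, adjusted p = 0.0486). Hey1 fell in wild type (−1.54 ± 0.31, adjusted p = 0.00147). Hes1 in wild type, at 18.5, 18.6, 10.7 and 14.7 CPM and then 5.75, 11.5 and 6.94, fell (−0.95 ± 0.35, adjusted p = 0.0486), with overlap. The wild-type Notch4 call was lost without any 1 of its 7 libraries (adjusted p 0.0502 to 0.154), that of Hes1 without day 7 replicate 1 (0.104), 2 (0.1) or 4 (0.0696) or day 30 replicate 1 (0.184) or 3 (0.155), and the Q150X Jag1 call without day 7 replicate 3 (0.0954) or day 30 replicate 2 (0.0725) or 3 (0.0752). With all the libraries that stood apart left out of the heart fit, the wild-type calls of Notch4 (−0.72 ± 0.21, adjusted p = 0.0117) and Hes1 (−0.97 ± 0.29, 0.0148) held. Dll4 (−0.64 ± 0.17, 0.00562) and Nrarp (−1.17 ± 0.44, 0.0409) passed there too.

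The endothelial marker sum was 1337 to 1482 CPM in wild-type hearts at homeostasis, 1006 to 1284 at day 7 and 876 to 960 at day 30, and 725 to 1451, 1007 to 1094 and 663 to 1015 in Q150X. Of the 10 markers, 1 fell at day 7 in wild type (Kdr) and 3 at day 30 (Kdr, Tek, Egfl7), 0 and 3 (Cdh5, Kdr, Esam) in Q150X, and none rose. Per 1000 CPM of that sum, Dll4 was at 21.4, 16.1 and 18.7 in wild type at homeostasis, 11.5, 14.3, 11.8 and 13.7 at day 7 and 10.2, 11.04 and 9.39 at day 30, in the same order over time as without the division. In Q150X it was at 15.03, 20.4 and 24.0, then 15.9, 12.7, 14.1 and 12.8, then 13.998, 13.5, 15.8 and 13.5. There homeostasis overlapped both later times through the heart of high atrial markers, day 30 did not lie below day 7, and the day 30 values were above all 3 of wild type. Hey1 per 1000 was at 9.13 to 13.0 at homeostasis and at 3.21, 8.69 and 3.23 at day 30 in wild type, and Nrarp at 1.04 to 2.02 and then 0.329, 0.977 and 0.385. After the division Jag1 and Notch4, in both genotypes, and Hey2 in wild type were higher at day 7 than at homeostasis, without overlap. The Notch4 values had overlapped before the division. Dll4 in wild type and Nrarp in Q150X were lower at day 7 without overlap, Nrarp at 1.76 to 2.18 and then 0.758 to 1.43. Jag1 went from 12.1 to 16.7 up to 18.9 to 24.8 in wild type and from 11.8 to 15.1 up to 21.3 to 26.1 in Q150X. Notch4 went from 34.9 to 44.2 up to 54.8 to 68.5 and from 39.4 to 41.6 up to 58.1 to 71.6, and Hey2 went from 1.97 to 3.10 up to 5.86 to 7.68 in wild type. These ratios are a description with no test, and the part of the endothelial share in the fitted changes was not tested. The leukocyte sum was 232 to 340 CPM at homeostasis and 506 to 814 at day 30 in wild type, the fibroblast sum 982 to 2184 and 2380 to 4696, and their part was not tested.

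**Figure D4:**
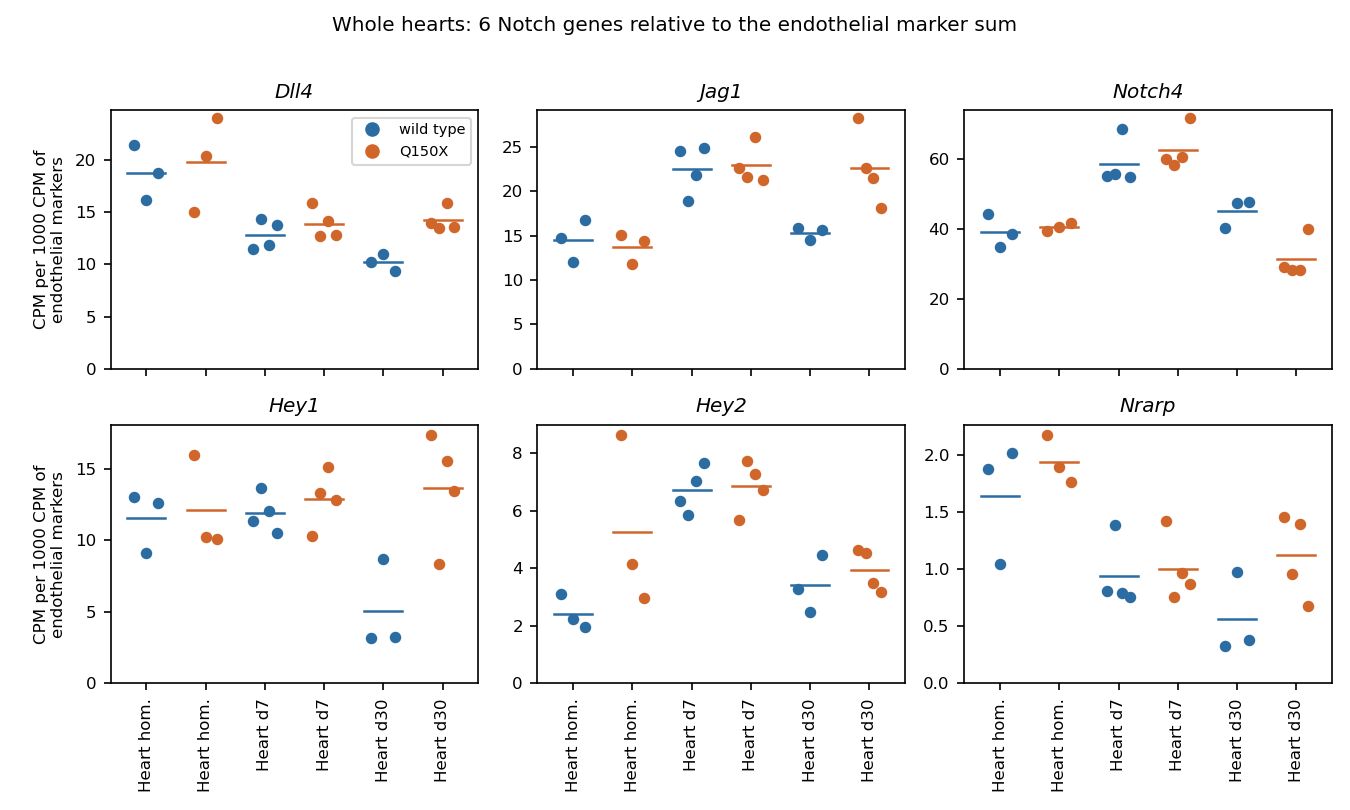
CPM of 6 Notch genes per 1000 CPM of the 10 endothelial markers in each whole heart; points are libraries, bars are group means, and axes start at 0. The mean of Dll4 falls from homeostasis over day 7 to day 30 in wild type. Notch4 is higher at day 7 than at the other times in both genotypes, while Jag1 in Q150X overlaps between day 7 and day 30.

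Between genotypes no member passed in any of the 7 comparisons by edgeR, where the share of all genes called was 0% in 6 and 0.443% (79 of 17845 genes) in hearts at day 30. At an unadjusted p under 0.05 the members numbered 1 in hearts at homeostasis, 0 at day 7 and 4 at day 30, 0 and 4 in endothelial cells at homeostasis and day 3, and 7 and 0 in cardiomyocytes. Over all genes the numbers were 504, 561 and 2481 of 17845 in hearts. They were 168 and 4223 of 18223 in endothelial cells, and 2009 and 254 of 15169 in cardiomyocytes. DESeq2 called 1 in hearts at day 30, 2 in endothelial cells at day 3 and 0 in the other 5. Vegfa itself was at 171 to 628 CPM in wild-type and 145 to 593 in Q150X hearts at homeostasis, and at 72.7 to 77.8 and 73.8 to 91.6 in endothelial cells.

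The member nearest to a call was Hey1 in hearts at day 30: 2.93, 7.61 and 3.10 CPM in wild type and 11.5, 6.23, 12.7 and 13.6 in Q150X (1.27 ± 0.31, adjusted p = 0.0742). The groups overlapped through replicate 2 of each genotype. DESeq2 called it (1.28, adjusted p = 0.00523), and edgeR called it without wild-type replicate 2 (1.87, adjusted p = 0.00283) or without Q150X replicate 2 (1.46, adjusted p = 0.0318). The genotype difference in the change from homeostasis to day 30 was 1.55 ± 0.44 for Hey1 (adjusted p = 0.356) and 2.15 without wild-type replicate 2 (adjusted p = 0.0219). In the same hearts Notch4 did not pass, at 19.3, 21.1, 23.0 and 40.7 CPM in Q150X against 36.9, 41.5 and 45.8 (−0.67 ± 0.24, adjusted p = 0.214), and was called without the Q150X replicate at 40.7 (−0.97, adjusted p = 0.035). Endothelial marker sums were 876 to 960 CPM in wild type and 663 to 1015 in Q150X, and fibroblast sums 2380 to 4696 and 5096 to 7875.

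In endothelial cells at homeostasis the genotypes lay side by side for Dll4, at 242, 257 and 257 CPM in wild type and 255, 258 and 246 in Q150X (0.01 ± 0.73). The 10 fold changes ran from −0.12 (Jag1) to 0.28 (Hes1). Hes1 did not pass, but its levels did not overlap, at 111, 108 and 116 CPM in wild type and 143, 128 and 136 in Q150X. The SE of most members here, 0.41 to 0.73, comes from a spread estimated over all 4 endothelial groups, including the day 3 library that stood apart; for Notch1 it was 0.20. In cardiomyocytes at homeostasis 9 of 10 had negative fold changes in Q150X, with a median of −0.95 (0.01 over all genes), and none passed. Nrarp was at 0.700, 1.28 and 0.545 CPM in wild type and 0.271, 0.224 and 0.240 in Q150X, without overlap (−1.73 ± 0.58, adjusted p = 0.237), and Hey1 at 6.59, 7.20 and 3.13 and then 2.11, 3.59 and 1.68 (−1.16 ± 0.36, adjusted p = 0.209). The 10 endothelial markers had a median of −0.93 in the same comparison, with sums of 344, 724 and 313 CPM in wild type and 208, 313 and 191 in Q150X. Per 1000 CPM of those markers, Dll4 was at 35.3, 24.7 and 17.6 in wild type and 24.5, 27.5 and 22.6 in Q150X, and Hey1 at 19.2, 9.96 and 10.01 and at 10.2, 11.5 and 8.79, which overlapped. Nrarp did not overlap after the division either, at 2.04, 1.77 and 1.74 in wild type and 1.30, 0.717 and 1.26 in Q150X. Its values rest on few counts, 12, 24 and 12 in wild type and 5, 5 and 5 in Q150X. Without the filter on low counts 5 members were called (Dll4, Jag1, Notch1, Notch4, Hey1; adjusted p 2.13e-04 to 0.0241) and 1.95% of all genes; the part of endothelial RNA was not tested.

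**Figure D5:**
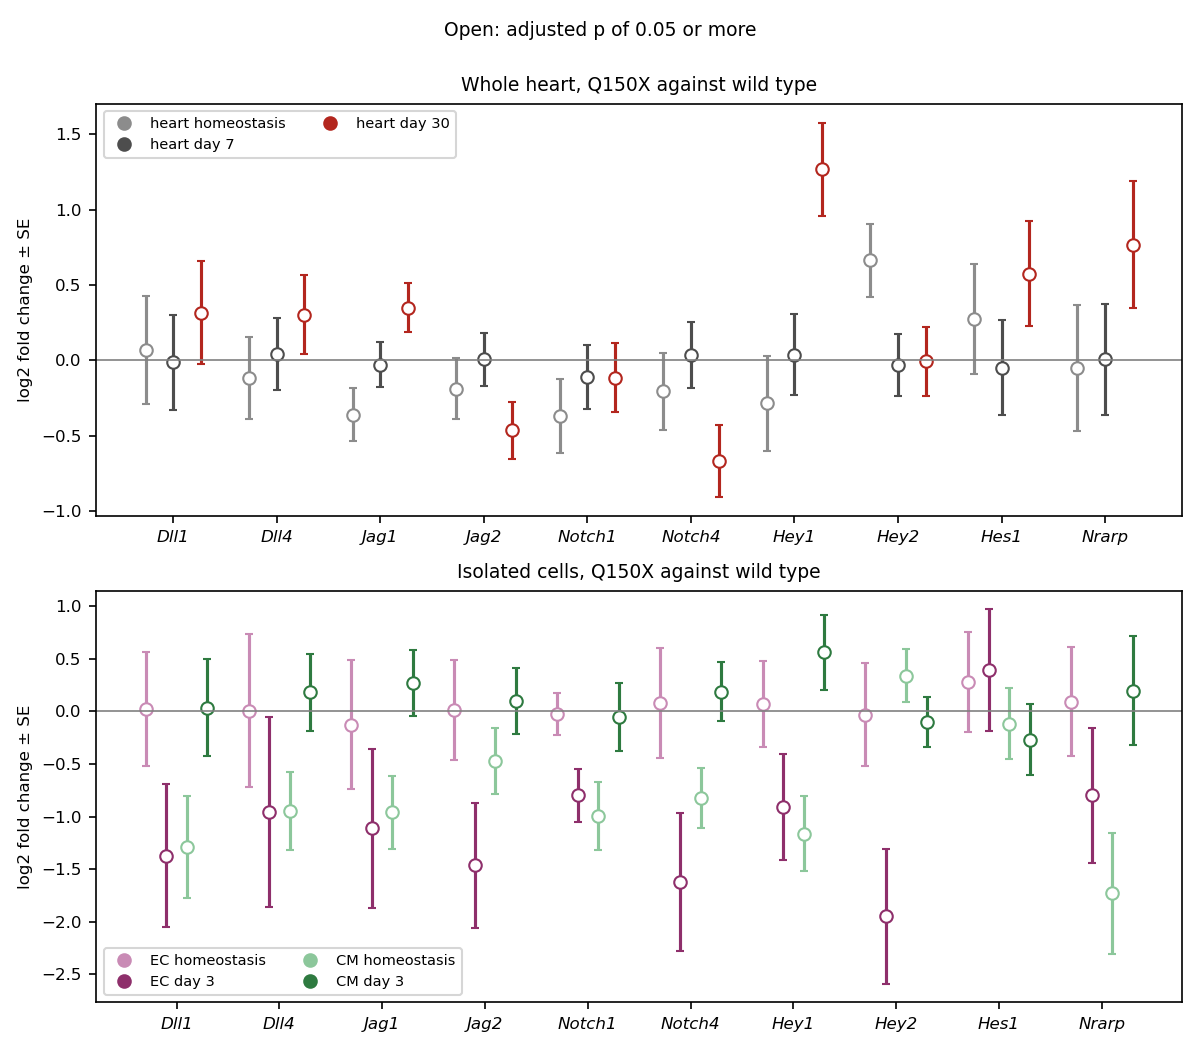
Log2 fold change with SE of Q150X against wild type for the 10 genes in whole hearts (top) and isolated cells (bottom), by time. All points are open because none passed an adjusted p of 0.05, and Hey1 at day 30 stands highest among the hearts at 1.27.

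At day 3 0 members passed in wild-type and 5 in Q150X endothelial cells, and no interaction with genotype passed. In wild-type endothelial cells 0 of 10 passed by edgeR (9.52% of all genes called) and 0 by DESeq2. At an unadjusted p under 0.05 there were 0 members, beside 4566 of all 18223 genes. The levels of some did not overlap. Dll4 was at 242 to 257 CPM at homeostasis and at 114 and 129 at day 3. Hey1 was at 103 and then 55.5 and 54.6, and Dll1 at 58.5 to 59.8 and then 26.2 and 19.4. Fitted without the Q150X groups, 6 of 10 passed as lower (Dll1, Dll4, Jag1, Hey1, Hey2, Hes1; adjusted p 9.45e-06 to 0.0105), with 41.8% of all genes called. In Q150X 5 of 10 fell (33.8% called, 15.1% lower): Hey2 (−2.86 ± 0.63, adjusted p = 0.0115), Dll1 (−2.60 ± 0.68, adjusted p = 0.0211), Jag2 (−1.74 ± 0.57, adjusted p = 0.0444), Hey1 (−1.71 ± 0.49, adjusted p = 0.0284) and Notch1 (−1.14 ± 0.23, adjusted p = 0.0085). Replicate 1 and replicate 2 were far apart, at 119 and 8.21 CPM for Dll4, 47.6 and 13.6 for Hey1 and 2.52 and 0.563 for Hey2, but at 138 and 124 for Notch1. Without replicate 2, where 37.5% of all genes were called, 8 of 10 passed as lower, from −0.89 ± 0.21 (Notch4) to −2.11 ± 0.35 (Hey2), all but Hes1 and Nrarp. Single homeostasis libraries also decided calls: without replicate 1 Jag2 (adjusted p = 0.091) and Hey1 (0.0609) were lost, and without replicate 2 (Dll1, 0.0508; Jag2, 0.0994; Hey1, 0.0628) or 3 (Dll1, 0.0532; Jag2, 0.0796; Hey1, 0.0698) those and Dll1. With only the Q150X groups fitted none passed, and with the replicate number as a block Jag2 and Hey1 did not (0.0663 and 0.0579).

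The sign of the Hes1 difference at day 3 depended on which Q150X endothelial library was kept. In Q150X Hes1 was at 143, 128 and 136 CPM before, at homeostasis, and at 162 and 36.4 at day 3, against 64.8 and 81.5 in wild type at day 3. Without the replicate that stood apart, which leaves a single Q150X library assumed to vary like the other groups, Hes1 was higher than in wild type by 1.11 ± 0.16 (adjusted p = 0.00292), Jag2 and Notch4 were lower (−0.74 ± 0.17, adjusted p = 0.0241; −0.87 ± 0.22, adjusted p = 0.0341), and the genotype difference in the change since homeostasis was 0.84 ± 0.19 for Hes1 (adjusted p = 0.0486). In that fit 6.04% of all genes were called between genotypes, and the change of Hes1 from homeostasis in Q150X, 0.39 ± 0.15, did not pass (adjusted p = 0.0598). Without replicate 1 instead, Hes1 was lower than in wild type (−1.29 ± 0.17, adjusted p = 4.25e-05), with a genotype difference in the change of −1.57 ± 0.20 (adjusted p = 4.13e-05) and 51.7% of all genes called between genotypes. The endothelial marker sum was 4902 and 5066 CPM in wild type at day 3 and 3294 and 748 in Q150X, against 8544 to 10522 at homeostasis, and the leukocyte sum 1807 to 4177 against 57.1 to 115. In wild type the mural cell sum was 3090 to 4213 CPM at homeostasis and 1513 to 1593 at day 3. The fibroblast sum there was 1314 to 1525 and then 3246 to 4007. In Q150X the mural cell sum was 3720 to 4482 and then 174 to 720, and the fibroblast sum 997 to 1320 and then 294 to 2591. Per 1000 endothelial CPM, Dll4 was at 23.0 to 28.0 in wild type at homeostasis and at 23.2 and 25.5 at day 3, which overlapped, and in Q150X at 24.5 to 29.9 and at 36.03 and 10.97. Dll1 in wild type stayed lower, at 5.60 to 6.51 and then 5.35 and 3.83, and Notch4 was above homeostasis, at 19.8 to 21.5 and then 39.6 and 35.1. Jag2 (17.4 to 19.9, then 28.3 and 24.4), Notch1 (28.1 to 35.0, then 43.3 and 41.2) and Nrarp (0.935 to 1.23, then 1.30 and 2.28) were above homeostasis in wild type too. Hes1 per 1000 was at 10.6 to 12.6 and at 13.2 and 16.1, and in Q150X at 13.5 to 16.8 and at 49.1 and 48.7. The part of these markers in the fitted changes was not tested.

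In cardiomyocytes at day 3, 3 of 10 fell in wild type (17.4% of all genes called, 7.22% lower) and 1 of 10 rose in Q150X (27.0% called, 14.9% higher). Hey1 in wild type was at 6.59, 7.20 and 3.13 CPM and then 1.92, 2.17 and 1.78 (−1.62 ± 0.36, adjusted p = 0.00648), without overlap. Notch1 and Notch4 changed by −1.05 ± 0.32 (adjusted p = 0.0404) and −0.99 ± 0.28 (adjusted p = 0.0274), and both calls were lost without homeostasis replicate 2 (0.155 and 0.132) or day 3 replicate 1 (0.152 and 0.0921) or 3 (0.133 and 0.0982), and with library size alone (0.0885 and 0.075). Jag1 in Q150X was at 4.55, 3.81 and 2.30 CPM and then 8.13, 11.1 and 14.01 (1.52 ± 0.34, adjusted p = 0.00453), a call that held without each library. In wild type Jag1 was at 4.32, 11.05 and 5.81 and then 9.95, 10.8 and 7.01 (0.29 ± 0.32, adjusted p = 0.586), and the genotypes' changes differed by 1.23 ± 0.47, which did not pass (adjusted p = 0.576). Hes1, the most abundant member per kb in these cells, was at 47.0 to 58.8 CPM at homeostasis and 29.4 to 49.7 at day 3 in wild type (−0.45 ± 0.34, adjusted p = 0.4). The endothelial sum was 313 to 724 CPM at homeostasis and 280 to 358 at day 3 in wild type, 191 to 313 and 336 to 420 in Q150X. The fibroblast sum went from 72.5 to 149 CPM to 778 to 1335 in wild type and from 32.1 to 90.4 to 953 to 1686 in Q150X, and the leukocyte sum from 5.43 to 15.6 to 137 to 258 and from 3.03 to 5.29 to 147 to 371. The part of these cells in the fitted changes, that of Jag1 in Q150X included, was not tested. Across the 4 interactions of genotype and time, 0 of 10 members and 0% of all genes passed by edgeR, 0 members by DESeq2, and 1, 2, 2 and 5 members had an unadjusted p under 0.05 (hearts at day 7 and day 30, endothelial cells, cardiomyocytes). Over all genes, in the same order, 588 and 1724 of 17845, 2291 of 18223 and 1186 of 15169 did.

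Of 46 other Notch pathway genes, 39 to 44 could be tested per fit. In endothelial cells against hearts 22 of 41 were higher and 4 lower, with a median of 0.48: Adam10, a protease that cuts Notch, by 1.98 (adjusted p = 3.7e-07), and Numb and Mib1, which act on Notch and ligand uptake, by 1.55 and 1.56. In cardiomyocytes against endothelial cells 2 of 41 were higher and 28 lower, and against hearts 3 and 15. Over all 16585 genes 5230 were higher and 5501 lower in endothelial cells against hearts. For cardiomyocytes the numbers were 5699 and 6534 against endothelial cells, and 2637 and 3535 against hearts. All 10 arterial endothelium genes of a separate list (Sox17 and Unc5b among them; it shares Egfl7 with the endothelial markers) were higher in endothelial cells than in hearts and lower in cardiomyocytes than in both. In hearts at day 7 the count was 0 higher and 4 lower of 41 in wild type (the receptor Notch3, −0.68, Pofut1 and Adam17, and the target Heyl, named after its value was seen) and 3 and 5 in Q150X, with Notch3 at −0.92 (adjusted p = 0.0013). Notch3 is also 1 of 10 mural cell markers, of which 2 fell in wild type and 3 in Q150X. At day 30 the count was 0 and 1 in wild type and 8 and 1 in Q150X, from day 7 to day 30 it was 6 and 4, and 8 and 4. Over all 17845 genes, 1365 were higher and 1083 lower at day 7 in wild type, and 2454 and 2187 in Q150X. At day 30 these were 972 and 622, and 2780 and 2527, and from day 7 to day 30 2480 and 2874, and 2650 and 2953. At day 3 the count was 4 and 0 of 44 in wild-type and 7 and 9 in Q150X endothelial cells, and 1 and 1 of 39 in wild-type and 11 and 6 in Q150X cardiomyocytes. Over all genes it was 1222 and 512, and 3405 and 2754, of 18223, and 1539 and 1095, and 2256 and 1841, of 15169.

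Lfng, a sugar transferase that alters which ligands a Notch receptor answers to, was the 1 pathway gene called between genotypes. In hearts at day 30 it was at 6.28, 8.64 and 6.06 CPM in wild type and 16.0, 16.2, 14.3 and 12.2 in Q150X, without overlap (1.07 ± 0.22, adjusted p = 0.03). The call was lost without wild-type replicate 1 (adjusted p = 0.192) or 3 (0.221) or Q150X replicate 1 (0.113), 2 (0.0524) or 3 (0.0905), with the replicate number as a block (0.0613) and with only the 2 groups fitted (0.0836), with log2 fold changes of 0.98 to 1.09 there. Lfng was also higher in the Q150X endothelial cells at day 3 than at homeostasis (36.3 and 50.4 against 12.5 to 15.2 CPM, 1.64, adjusted p = 3.7e-04) and in wild type (22.8 and 22.0 against 10.8 to 12.3 CPM, 1.14, adjusted p = 0.0038), where leukocyte marker sums were also higher. In hearts at day 30 that sum was 506 to 814 CPM in wild type and 617 to 1598 in Q150X, and its part was not tested.

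Over the 14 group means, on log2(CPM + 1), the genes of most similar profile among 12247 were Samd12 (Pearson r = 0.995), St6galnac3 (0.994) and Numb (0.991) for Dll4, Klhl5 (0.995) for Jag1, Syne2 (0.994) and Emcn (0.993) for Dll1, Tie1 (0.990) for Jag2, Slc28a2 (0.994) for Notch1 and Shank3 and Fzd4 (both 0.990) for Notch4. For Hey1 the nearest was Ceacam1 (0.983), for Nrarp St6galnac3 (0.985) with Dll4 next (0.984), and Hes1 and Hey2 had weaker nearest profiles, Trappc8 (0.979) and Stard13 (0.950). The 14 means share compartments and the scaling of library sizes, and the values carry no test.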

How the data were processed

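Bulk RNA-seq of 43 libraries in 14 groups was deposited by the authors as 1 table of raw counts per gene. The submitters' processing notes name GRCm39, HISAT2 and kallisto. Tool versions, the tool behind the counts and the strand setting: not given in the sources used here. RNA was taken with Trizol, per the labels' protocols. Symbols came from GENCODE vM21 (52029 of 57010 identifiers; the 4981 without a symbol held at most 0.18% of a library's counts). Exon lengths are from the same annotation. None of 47 replicate pairs was identical. Of antisense genes overlapping a member, that of Dll4 had 2576 counts in all, against 111384 for Dll4, and without a strand setting their reads cannot be told apart.

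Each compartment was fitted alone, and the 3 wild-type homeostasis groups together, with edgeR 4.0.16 in R 4.3.3 (filterByExpr with count minimum 10 and total minimum 15, TMM, quasi-likelihood F-test with robust estimation, a mean for each group). It tested 17845 genes in hearts, 18223 in endothelial cells, 15169 in cardiomyocytes and 16585 across compartments. A gene passed at an adjusted p (Benjamini-Hochberg over all genes tested) under 0.05, in 24 comparisons. Each SE was computed as the absolute log2 fold change divided by √F. Other tables used Python 3.11.15. The fits were tested on simulated data. Alternatives were DESeq2 1.42.0, its size factors in edgeR, library size alone, no filter, the replicate number as a block, only the groups compared, and leaving out each library or those that stood apart.

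The members and lists were chosen with earlier results of these data known. Named genes are the 10 members, at most 4 other pathway genes with the smallest p per comparison, up to 3 genes of most similar profile per member, and Vegfa. Same-numbered libraries deviated together in hearts at homeostasis (correlations 0.695, 0.521 and 0.569, from the data and not the labels) and in no other group were all pairs above 0.1. Each deviation is from a group mean that includes replicate 1, the library of high atrial markers in both genotypes. The values therefore do not show that the numbers pair samples. The Hey2 and Nrarp promoters are from RefSeq. The series' single-nucleus data were not analysed here.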

Additional observations from a re-analysis of the deposited data

Results flagged for a closer look

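In 30 sets of 4 libraries (10 genes in 3 heart groups), 2 held a library far from the other 3 by Dixon's test, where chance gives about 1 in 20. Notch1 in Q150X hearts at day 7 was at 40.8 CPM in replicate 2, against 29.0 to 29.2 in the others. Nrarp in wild-type hearts at day 7 was at 1.78 CPM in replicate 2, against 0.764 to 0.905.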

How the results depend on the processing

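For the members that passed in a comparison, or had its smallest p, 942 values were computed under the alternatives: 843 kept their direction and side of the threshold, 89 kept the direction and no longer passed, 10 passed in addition, and 0 changed direction. Members outside that set could change direction: Hes1 between genotypes in endothelial cells at day 3 went from 0.39 to −1.29 without Q150X replicate 1, and Hey2 in cardiomyocytes against hearts from −0.03 to 0.21 without the libraries that stood apart. Counts of members that passed moved by over 1.5 times as follows. With DESeq2, hearts went from 3 to 5 at day 7 and from 3 to 5 at day 30 in wild type, Q150X endothelial cells at day 3 from 5 to 8 and wild-type cardiomyocytes from 3 to 5, and the genotype counts from 0 to 1 (hearts, day 30) and from 0 to 2 (endothelial cells, day 3). With library size alone, wild-type hearts at day 7 had 1, Q150X hearts at day 30 had 1 of 5, and Q150X endothelial cells 8. Without the filter, cardiomyocytes had 5 (genotype, homeostasis), 4 (interaction) and 5 (wild type, day 3), and wild-type hearts from day 7 to day 30 had 3 of 5. With only the groups compared, Q150X hearts had 0 of 2 at day 7 and 3 of 5 at day 30, endothelial cells 6 (wild type) and 0 (Q150X), and wild-type cardiomyocytes 1 of 3. Without the libraries that stood apart, the counts were 4 for Q150X hearts at day 7, and for endothelial cells 8 (Q150X, day 3), 3 (genotype, day 3) and 1 (interaction). The replicate block gave 1 of 2 for Q150X hearts at day 7 and 3 of 5 for Q150X endothelial cells; fitted in homeostasis hearts alone, an alternative chosen after the data were seen, it left 0 members called. Same-numbered libraries deviated together only there, where both groups hold 1 library of high atrial markers. The numbers are therefore not shown to pair samples, and elsewhere a call lost under the block is not read as a weaker effect. The cause of these moves was not tested.

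Leaving out 1 library at a time gave 1 to 5 members for wild-type and 1 to 4 for Q150X hearts at day 7, 2 to 5 for Q150X hearts at day 30, 3 to 5 for wild-type hearts from day 7 to day 30, 2 to 10 for Q150X endothelial cells, 1 to 4 for wild-type cardiomyocytes, 0 to 1 for the genotype and its interaction in hearts at day 30, and 0 to 10 for both in endothelial cells at day 3; there the 10 appear without Q150X replicate 1, where the remaining library is the one that stood apart. Depth limits Nrarp most, at 5 counts in each Q150X cardiomyocyte library at homeostasis. The endothelial comparisons at day 3 rest on 2 libraries a group.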
